A study of Mus musculus with 6 samples.

Results

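The core circadian clock was described in bulk isolates of splenic CD8+ T cells through its 10 member genes, Clock, Arntl, Per1, Per2, Per3, Cry1, Cry2, Nr1d1, Nr1d2 and Dbp. They were chosen by name as the core genes of the loop, with earlier results of these data known, and all 10 were matched by symbol to 1 Ensembl ID each among the 28773 gene IDs of the series. The authors had sequenced bulk RNA of CD8+ T cells from the spleens of mice, taken on day 35 after tumor cells were inoculated. All mice had received microwave ablation (MWA), the destruction of the primary tumor by heat. The 3 MWA+PBS samples came from mice given the PBS vehicle, and the 3 MWA+2DG samples from mice given 2-deoxy-D-glucose (2DG), a glucose analogue that blocks glycolysis. By the study's methods, the injections had been given on alternate days from the ablation and had ended before day 35. The methods describe wild-type female mice kept under alternating light and dark, while the labels of these samples give no strain, age, tumor line or genotype. No source used here gives the hour of collection. If the groups were collected at different hours, hour and treatment cannot be told apart, and with 1 collection per sample no rhythm could be read. Nothing in the labels says whether the samples of a group were separate animals or pools. Each p-value therefore sets the group difference against only the spread between these samples, which may not be that between animals.

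The clock is a feedback loop of transcription. CLOCK and BMAL1, the product of Arntl, bind together to E-box motifs and raise transcription of the Per and Cry genes, whose proteins return to the nucleus and repress them. In a second loop the nuclear receptors REV-ERB alpha and beta, encoded by Nr1d1 and Nr1d2, repress Arntl at sites that ROR receptors activate, and DBP carries the rhythm to further genes through D-box motifs. In lymphocytes the clock is known for timing the homing of cells to lymphoid organs and their egress.

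Expression was given as FPKM, in which fragments are scaled to the length of the transcript and to the library, so levels can be compared between genes. Totals lay between 291803 and 313257 FPKM, with 12198 to 12515 genes at 1 FPKM or more in each sample. Read depth is unknown. Pearson's r of log2(FPKM + 1) across genes, which are not independent replicates, was 0.984 to 0.989 within groups and 0.934 to 0.943 between them. All 16 T lineage markers were detected, and 14 of them were higher in MWA+2DG (called where the adjusted p of limma was under 0.05), with a summed level of 1730 to 1818 FPKM in MWA+PBS and 2404 to 2566 FPKM in MWA+2DG. Markers of other cells were present too, and none of them was at 0 in all samples. The 12 macrophage markers summed to 840.8 to 907.1 FPKM in MWA+PBS and 120.9 to 131.1 FPKM in MWA+2DG, and all 12 were lower. Of the 12 neutrophil markers 10 were higher and 2 lower, with sums of 329.5 to 356.6 FPKM and 1609 to 1784 FPKM. The 10 erythroid markers were all lower, with sums of 310.1 to 366.1 FPKM and 81.1 to 97.4 FPKM. Of the 10 B cell markers, the 9 tested were higher, with sums of 11.1 to 12.3 FPKM and 57.0 to 62.9 FPKM. Over all tested genes 22.3% were higher and 17.1% lower by that rule. The part of these cells in the clock values was not tested. In such bulk samples, fewer cells of a type and less RNA per cell cannot be told apart.

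Promoters of 9 of the 10 members were available from RefSeq (GRCm38.p6), as 13 windows of 300 bases. They run from 250 bases before the transcription start to the 50 bases from it. No window was at hand for Per2, so its promoter was not searched. Motifs were searched on both strands. The E-box CACGTG was found in 2 of the 13 windows, of Per1 and Cry1, against 7.15% of all 32851 windows of that length. The related E'-box, CACGTT, was found in 3 windows, of Cry1, Cry2 and Nr1d1, against 4.68%. The D-box, searched as TTATGTAA or TTACGTAA, was found in 1 window, of Per3, against 1.06%. The ROR half-site AGGTCA was found in 4 windows, of Per1, Arntl, Clock and Nr1d2, against 16.3%. The bases beside this half-site were not searched, so a full ROR site cannot be read from it. No member's window held the CRE TGACGTCA (1.79% of all windows) or the heat shock element (0.603%). None of these motifs overlapped another in the sequences shown, and a match is a description of the letters only. The first of 2 windows of Per1 and the window of Dbp, the members past the test in this comparison, and those of Cry1 and Nr1d1, examples of members that were not past it and hold an E-box or E'-box, are printed 5′ to 3′ with the E-box and the E'-box (read on either strand) in capitals. The Dbp window and the second Per1 window, which is not printed, hold none of the motifs searched. The printed Per1 window is chr11:69098699-69098998 (plus strand), the Dbp window chr7:45704997-45705296 (plus), the Cry1 window chr10:85185005-85185304 (minus) and the Nr1d1 window chr11:98775328-98775627 (minus). The E-box began 166 bases before the start in Per1 and 60 bases before it in Cry1, and the E'-box 79 bases before it in Cry1 and 28 bases before it in Nr1d1.
Per1: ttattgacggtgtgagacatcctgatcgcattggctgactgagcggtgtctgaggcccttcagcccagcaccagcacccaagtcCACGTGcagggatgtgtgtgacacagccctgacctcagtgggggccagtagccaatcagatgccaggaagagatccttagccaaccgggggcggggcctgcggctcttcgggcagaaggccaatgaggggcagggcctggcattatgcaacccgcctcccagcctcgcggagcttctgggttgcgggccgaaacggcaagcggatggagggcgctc
Dbp: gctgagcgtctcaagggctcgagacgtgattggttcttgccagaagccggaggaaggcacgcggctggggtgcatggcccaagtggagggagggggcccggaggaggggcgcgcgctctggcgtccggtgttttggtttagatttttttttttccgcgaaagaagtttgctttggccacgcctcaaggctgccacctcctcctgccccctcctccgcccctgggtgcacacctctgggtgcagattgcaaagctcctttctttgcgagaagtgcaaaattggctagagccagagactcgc
Cry1: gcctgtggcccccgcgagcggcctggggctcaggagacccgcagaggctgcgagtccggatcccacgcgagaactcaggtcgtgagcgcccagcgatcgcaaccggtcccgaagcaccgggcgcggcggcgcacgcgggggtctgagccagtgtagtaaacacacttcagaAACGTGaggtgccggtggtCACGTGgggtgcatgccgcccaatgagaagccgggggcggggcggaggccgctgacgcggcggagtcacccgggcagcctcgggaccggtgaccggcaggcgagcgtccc
Nr1d1: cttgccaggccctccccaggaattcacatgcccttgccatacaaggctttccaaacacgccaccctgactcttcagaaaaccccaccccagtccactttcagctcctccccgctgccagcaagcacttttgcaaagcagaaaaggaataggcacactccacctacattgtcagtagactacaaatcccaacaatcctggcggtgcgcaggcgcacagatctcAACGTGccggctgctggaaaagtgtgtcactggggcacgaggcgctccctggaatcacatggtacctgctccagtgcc

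The comparison of MWA+2DG with MWA+PBS asked how the transcriptome of these bulk isolates differed where 2DG was given after the ablation. Most of the core clock did not pass the test. Per1, a repressor gene of the loop, was 1 of 2 exceptions and fell to 0.595 of its MWA+PBS level, and the output gene Dbp was the other and rose 1.59-fold, a call that was lost when libraries were scaled to T lineage genes. Of the 10 members, 9 had a mean level of at least 1 FPKM and were tested, and Per3 lay below. At a limma Benjamini-Hochberg adjusted p under 0.05 over all genes, 2 of these 9 were called, 1 higher and 1 lower, while 39.4% of the 12444 genes tested were called, 22.3% higher and 17.1% lower. By the call rule of the study, P under 0.05 and a log2 fold change beyond 0.25, the same number of members was called, 2, beside 38.2% of all genes. When libraries were scaled to T lineage genes, 8 of the 9 were called, all lower, beside 8589 of the 12444 genes called lower. The samples of the groups did not overlap for 3 members, 2 higher and 1 lower in MWA+2DG, beside 30.2% and 21.9% of the tested genes. The median log2 fold change of the 9 members was 0.0427 and that of all tested genes 0.0462. In absolute size the medians were 0.11 and 0.21.

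**Figure D1:**
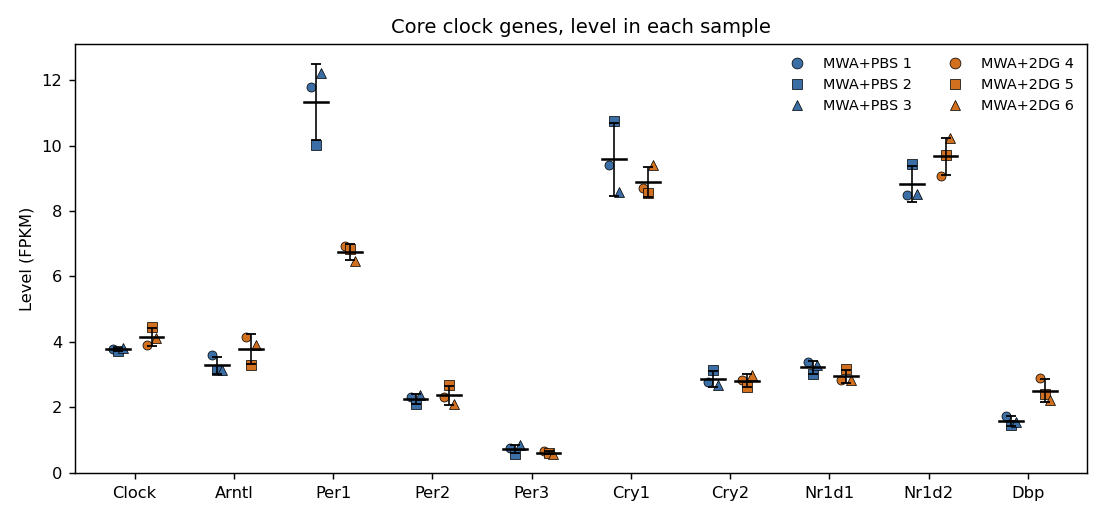
Level of each core clock gene in FPKM (y axis, linear from 0) in the 3 MWA+PBS and 3 MWA+2DG samples, with the mean (bar) and SD (whiskers) of each group. Per1 is the gene whose groups stand farthest apart, at 11.3 and 6.75 FPKM, and Dbp lies higher in all 3 MWA+2DG samples.

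Per1 encodes PERIOD1, a repressor of CLOCK and BMAL1 that is also known to respond early to signals from outside the loop. Its levels were 11.8, 10.01 and 12.2 FPKM in MWA+PBS replicates 1 to 3 against 6.93, 6.85 and 6.47 FPKM in MWA+2DG replicates 4 to 6. The groups did not overlap, and the lowest MWA+PBS sample lay well above the highest MWA+2DG sample. The means were 11.3 ± 1.17 FPKM and 6.75 ± 0.246 FPKM (SD, n = 3), which gives -0.67 ± 0.08 (SE) as the log2 fold change at a limma adjusted p of 0.000594. The mean level of Per1 was above that of 67.8% of the tested genes in MWA+PBS and of 50.7% in MWA+2DG.

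The other period genes did not follow Per1 past the test. Per2, which encodes the partner repressor PERIOD2, was 2.32, 2.1 and 2.37 FPKM in MWA+PBS against 2.31, 2.67 and 2.12 FPKM in MWA+2DG. The groups overlapped, and the 95% interval of the log2 fold change ran from -0.17 to 0.26 (limma adjusted p = 0.741). Per3, the remaining period gene, was 0.75, 0.59 and 0.85 FPKM and 0.68, 0.62 and 0.57 FPKM, also overlapping. In a fit without a filter on low values its interval was -0.31 to 0.13 (limma adjusted p = 0.563). Per3 overlaps Camta1 on the same strand in the GENCODE M21 annotation, and Camta1 averaged 0.56 FPKM and 0.74 FPKM, so reads may be shared between them. Per1 and Per2 lay closer together in MWA+2DG. The log2 ratio of Per1 to Per2 within a sample was 2.35, 2.25 and 2.37 in MWA+PBS and 1.59, 1.36 and 1.61 in MWA+2DG, without overlap. As a ratio this was 5.00-fold and 2.86-fold.

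The cryptochromes Cry1 and Cry2 encode the repressors that act with the PERIOD proteins. Cry1 was 9.39, 10.8 and 8.57 FPKM in MWA+PBS against 8.71, 8.56 and 9.40 FPKM in MWA+2DG. Cry2 was lower in level, at 2.77, 3.14 and 2.70 FPKM and 2.83, 2.61 and 3.00 FPKM. Both overlapped between groups. The intervals of the log2 fold change were -0.29 to 0.11 for Cry1 (limma adjusted p = 0.427) and -0.21 to 0.17 for Cry2 (limma adjusted p = 0.864). Cry2 overlaps D930015M05Rik on the opposite strand, which averaged 0.507 FPKM and 0.337 FPKM. Cry1 exceeded Cry2 in every sample, by 3.33-fold in MWA+PBS and 3.16-fold in MWA+2DG.

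Clock and Arntl form the activating arm. Arntl was 3.59, 3.13 and 3.15 FPKM in MWA+PBS against 4.16, 3.29 and 3.90 FPKM in MWA+2DG, with MWA+2DG replicate 5 inside the range of MWA+PBS. Its log2 fold change of 0.15 had an interval of -0.06 to 0.37 (limma adjusted p = 0.224). Clock was 3.80, 3.73 and 3.81 FPKM and 3.90, 4.46 and 4.11 FPKM. All 3 MWA+2DG samples lay above MWA+PBS, a separation without overlap that 52.1% of the tested genes showed in 1 direction or the other, and the interval of -0.05 to 0.27 still included 0 (limma adjusted p = 0.254). The pseudogene Ube2n-ps1 (5.08 FPKM in MWA+PBS against 3.70 FPKM in MWA+2DG on average) and Gm43658 (0.16 FPKM and 0.103 FPKM) lie on the same strand as Clock and overlap it, so how reads were divided among them is uncertain. Arntl overlaps Gm45355 on the opposite strand, which averaged 0.213 FPKM and 0.05 FPKM.

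The REV-ERB genes, which repress Arntl, did not pass either. Nr1d1 was 3.39, 3.01 and 3.30 FPKM in MWA+PBS against 2.83, 3.18 and 2.85 FPKM in MWA+2DG, with an interval of -0.28 to 0.08 (limma adjusted p = 0.346). Nr1d2 stood about as high as Cry1, at 8.49, 9.45 and 8.52 FPKM and 9.07, 9.71 and 10.2 FPKM, with an interval of -0.04 to 0.28 (limma adjusted p = 0.209). Both genes overlapped between groups. Nr1d1 overlaps Thra on the opposite strand in the GENCODE M21 annotation, and no source used here says whether strand was used in quantification, so reads of Nr1d1 and Thra may not be told apart. Thra was 4.65 FPKM in MWA+PBS against 3.97 FPKM in MWA+2DG on average. The log2 ratio of Nr1d1 to Arntl, the repressor over its target, was -0.08, -0.06 and 0.07 in MWA+PBS and -0.56, -0.05 and -0.45 in MWA+2DG, and the groups overlapped through replicate 5.

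Dbp encodes a D-box activator and is a direct output of CLOCK and BMAL1. It was 1.74, 1.46 and 1.54 FPKM in MWA+PBS against 2.9, 2.41 and 2.22 FPKM in MWA+2DG. Every MWA+2DG sample lay above every MWA+PBS sample. The means were 1.58 ± 0.144 FPKM and 2.51 ± 0.351 FPKM (SD, n = 3), which gives 0.44 ± 0.10 (SE) as the log2 fold change at a limma adjusted p of 0.0115. At this low level the scale understates the change, and with a pseudocount of 0.1 in place of 1 the log2 fold change was 0.63. Dbp overlaps Sphk2 on the opposite strand in the annotation, where the same limit holds, and Sphk2 averaged 10.4 FPKM and 9.50 FPKM. Against Arntl in the same sample, the log2 ratio of Dbp was -1.04, -1.10 and -1.03 in MWA+PBS and -0.52, -0.45 and -0.81 in MWA+2DG. The means differed by 0.47, and by 0.29 with a pseudocount of 1 in the ratio.

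**Figure D2:**
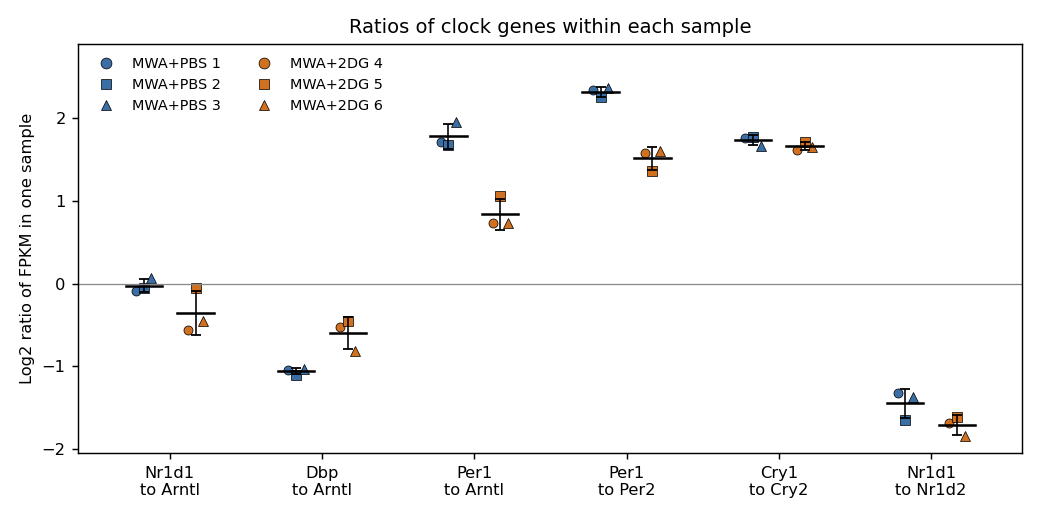
Log2 ratio of the FPKM of a pair of clock genes within each sample (y axis), with the mean (bar) and SD (whiskers) of 3 samples a group. Ratios with Per1 lie lower and that of Dbp to Arntl lies higher in MWA+2DG without overlap, while those of Cry1 to Cry2, Nr1d1 to Arntl and Nr1d1 to Nr1d2 overlap.

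The ratios within a sample do not depend on how libraries were scaled to each other. Per1 to Arntl was 1.72, 1.68 and 1.95 on the log2 scale in MWA+PBS and 0.74, 1.06 and 0.73 in MWA+2DG, or 3.44-fold and 1.79-fold on average. Of the 6 ratios examined, the groups were apart in those of Per1 to Arntl, Per1 to Per2 and Dbp to Arntl. Each of the 3 holds a called member, so they restate its change against a gene that did not pass. No p is given for these ratios, since the pairs were chosen with earlier results known.

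The order of the members by mean level shifted mainly through these genes. In MWA+PBS it ran Per1 (11.3 FPKM), Cry1 (9.57), Nr1d2 (8.82), Clock (3.78), Arntl (3.29), Nr1d1 (3.23), Cry2 (2.87), Per2 (2.26), Dbp (1.58) and Per3 (0.73). The ranges of Per1 and Cry1, Cry1 and Nr1d2, Arntl and Nr1d1, and Nr1d1 and Cry2 overlapped, so the order of these neighbors is not settled. In MWA+2DG Nr1d2 (9.67 FPKM) and Cry1 (8.89) came first with overlapping ranges, and Per1 (6.75) followed, apart from both neighbors. Below it the order was Clock (4.16), Arntl (3.78), Nr1d1 (2.95), Cry2 (2.81), Dbp (2.51), Per2 (2.37) and Per3 (0.623). There the ranges of Clock and Arntl overlapped, and so did those of Nr1d1 and Cry2, Cry2 and Dbp, and Dbp and Per2. Dbp and Per2, which were apart in MWA+PBS, thus overlapped in MWA+2DG.

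The choice of reference mattered for the members near 0. When libraries were scaled so that the 16 T lineage genes had the same mean, every log2 fold change was lowered by 0.429 and the median of all tested genes went from 0.0462 to -0.383. Per1 was then at -1.10 and stayed below that median, while Dbp was at 0.0115 and no longer called (limma adjusted p = 0.926). The other 7 tested members lay between -0.53 and -0.27 and were called lower, so that 8 of 9 members passed, all downward. Of these 7, Arntl, Clock, Nr1d2 and Per2 had been above 0 in the reported fit. Over all genes the same scaling called 9060, 471 higher and 8589 lower, in place of 2773 higher and 2134 lower. Under the other 14 alternatives Per1 kept its call and direction, with adjusted p-values of 3.96e-05 to 0.00379 over all 15 alternatives, and Dbp kept its call under the 13 others in which it was tested.

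**Figure D3:**
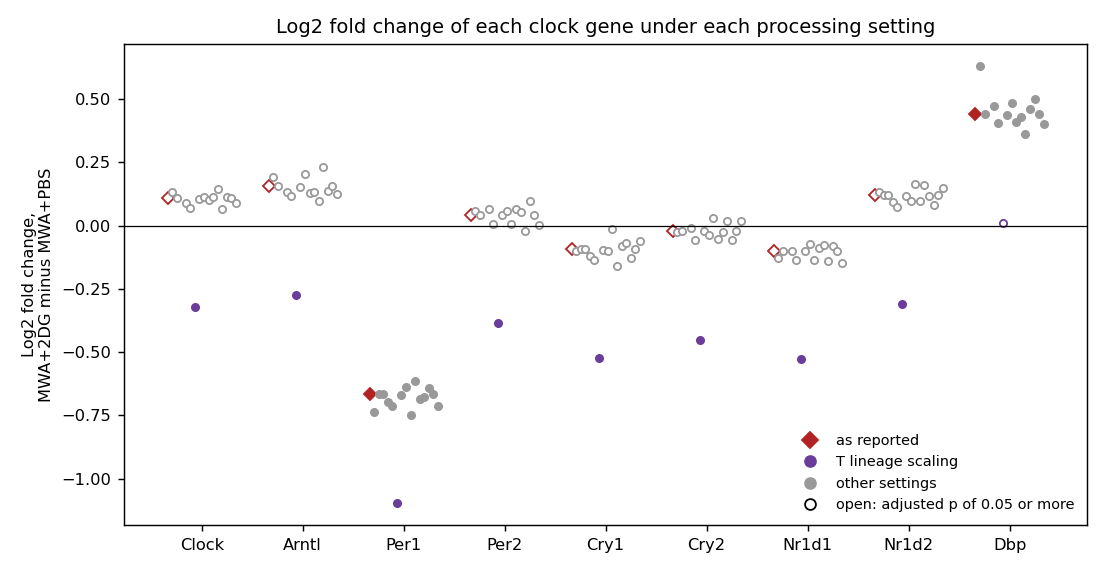
Log2 fold change (MWA+2DG minus MWA+PBS, y axis) of the 9 tested clock genes in the reported fit (diamond) and under each alternative (circles, with T lineage scaling in purple), filled where the limma adjusted p was under 0.05. Per1 is filled and below 0 throughout, Dbp is filled except with T lineage scaling, and the other 7 are filled only with T lineage scaling.

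Genes that act around the core were compared next. The list held 29 companion genes, of which 28 were in the files and 20 were tested, with Rorb not analysed here. Of these 20, 1 was higher and 8 lower at a limma adjusted p under 0.05, or 45%, beside 39.4% of all tested genes. By the call rule of the study 6 of the 20 were called, 1 higher and 5 lower, beside 38.2% of all tested genes. Their share was thus above that of all genes by one rule and below it by the other. Under the first rule it also depended on single samples. Without MWA+PBS replicate 1, MWA+PBS replicate 3 or MWA+2DG replicate 4, 5 of the 20 were called, beside 3706, 4020 and 3713 of the 12444 genes. The median log2 fold change was -0.06. By role, 4 of the 9 called genes were outputs of the clock and 2 were kinase or ligase genes.

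**Figure D4:**
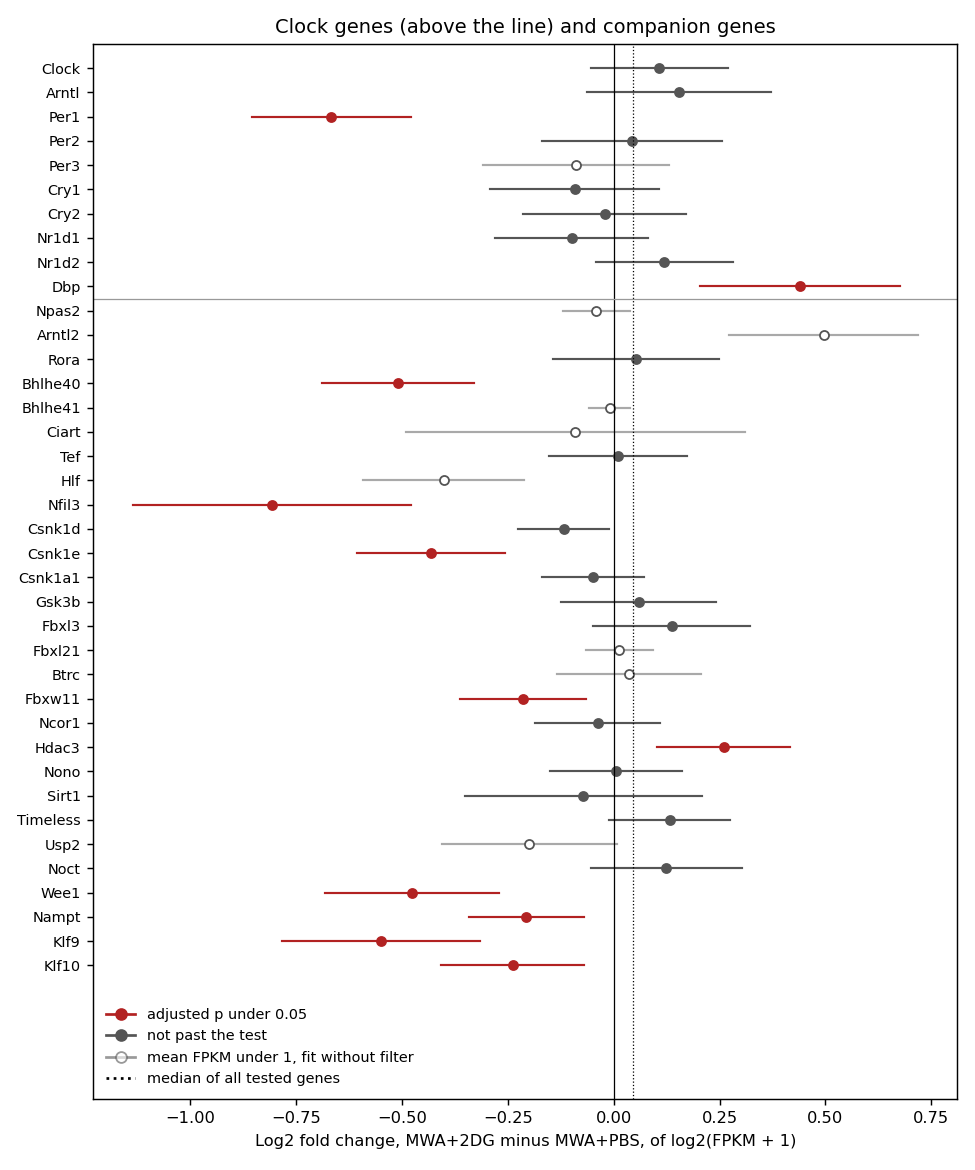
Log2 fold change with its 95% interval (x axis, MWA+2DG minus MWA+PBS, on log2(FPKM + 1)) for the 10 clock genes above the line and 28 companion genes below it, red where called, open where the mean was under 1 FPKM, with a dotted line at the median of all tested genes. Nfil3 lies lowest at -0.81 and Per1 next at -0.67, and most core genes have intervals that include 0.

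Among the transcription factors that share the sites of the clock, 2 repressors were lower, beside 17.1% of all tested genes. In the group of Bhlhe40, Bhlhe41 and Ciart, 1 of 3 genes was tested and was lower. In that of Nfil3, Tef and Hlf, 2 of 3 were tested and 1 was lower. Bhlhe40, which encodes the E-box repressor DEC1, fell from 4.56, 4.0 and 4.39 FPKM to 2.94, 2.64 and 2.62 FPKM, which gives -0.51 ± 0.08 (SE) as the log2 fold change at a limma adjusted p of 0.00176. Nfil3, which encodes the repressor that opposes DBP at D-boxes, fell from 3.75, 3.23 and 2.87 FPKM to 1.88, 1.46 and 1.05 FPKM, a change of -0.81 ± 0.14 on the log2 scale (SE, limma adjusted p = 0.00346). Neither gene overlapped between groups. Tef, which encodes an activator related to DBP, was 4.77 ± 0.283 FPKM and 4.81 ± 0.243 FPKM (SD, n = 3), and its log2 fold change had an interval of -0.15 to 0.17 (limma adjusted p = 0.927). Hlf, the third activator of that family, was below 1 FPKM on average, at 0.80, 0.84 and 0.96 FPKM in MWA+PBS against 0.45, 0.44 and 0.35 FPKM in MWA+2DG. In the fit without a filter Hlf was lower, with -0.40 (limma adjusted p = 0.018). In this family Dbp was thus higher, Hlf lower and Tef without a call, and the differences between them were not tested. The scaling alternatives left out genes with a mean under 1 FPKM, Hlf and Arntl2 among them.

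Rora, which encodes an activating ROR receptor, was 1.99 ± 0.0643 FPKM and 2.11 ± 0.197 FPKM (SD, n = 3), with overlapping groups. Arntl2, a paralog of Arntl, was scarce, at 0.39, 0.51 and 0.42 FPKM in MWA+PBS against 1.14, 0.87 and 1.09 FPKM in MWA+2DG. Without a filter it was higher, with 0.50 (limma adjusted p = 0.0151). The Clock paralog Npas2 lay at 0.11 FPKM or less in each sample, Bhlhe41 at 0.06 FPKM or less, and Ciart, which encodes a further repressor, ranged from 0.57 to 1.29 FPKM.

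**Figure D5:**
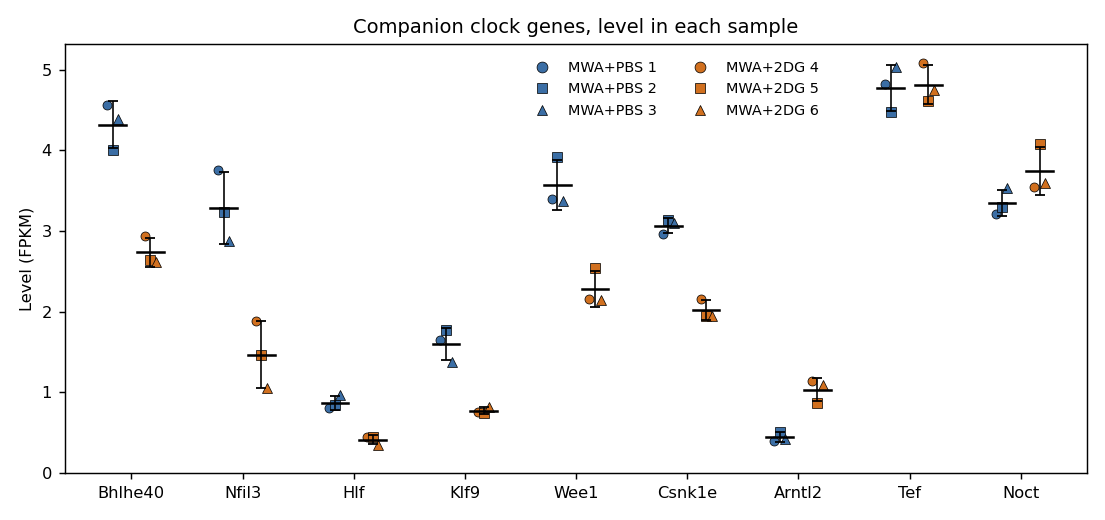
Level in FPKM (y axis, linear from 0) of 9 companion genes in the 3 MWA+PBS and 3 MWA+2DG samples, with the mean (bar) and SD (whiskers) of each group. Bhlhe40, Nfil3, Hlf, Klf9, Wee1 and Csnk1e lie lower in all 3 MWA+2DG samples, Arntl2 and Noct lie higher in FPKM as deposited, and Tef overlaps.

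Of the kinases and ubiquitin ligases that set the life span of PERIOD and CRYPTOCHROME proteins, 6 of 8 were tested and 2 were lower, beside 17.1% of all tested genes. Csnk1e, which encodes casein kinase 1 epsilon, fell from 3.06 ± 0.0907 FPKM to 2.02 ± 0.124 FPKM (SD, n = 3), a change of -0.43 on the log2 scale (limma adjusted p = 0.00343). Its relative Csnk1d, far more abundant, was 29.8 ± 0.332 FPKM and 27.4 ± 0.259 FPKM without overlap, with -0.12 (limma adjusted p = 0.076). It was called lower with no filter on low values (limma adjusted p = 0.0499), median ratio scaling (0.0266), arrayWeights (0.0409) and T lineage scaling (0.000119). Fbxw11, a ligase subunit, was lower with -0.21 (limma adjusted p = 0.0316). Of 5 corepressors and partners, Hdac3, the deacetylase that REV-ERB recruits, was higher with 0.26 (limma adjusted p = 0.0189). With T lineage scaling Hdac3 was instead called lower, with -0.17 (limma adjusted p = 0.0451). Among 5 tested output genes 4 were lower, beside the same 17.1%. They were Wee1, a mitotic kinase, with -0.48 (limma adjusted p = 0.00455), the Krüppel-like factors Klf9, with -0.55 (0.00432), and Klf10, with -0.24 (0.0346), and Nampt, an enzyme of NAD synthesis, with -0.21 (0.0264). Klf9 was 1.65, 1.77 and 1.38 FPKM in MWA+PBS against 0.76, 0.74 and 0.82 FPKM in MWA+2DG, and Wee1 was 3.4, 3.92 and 3.37 FPKM against 2.16, 2.54 and 2.14 FPKM. Neither overlapped between groups. Noct, a phosphatase of rhythmic expression, was 3.35 ± 0.165 FPKM and 3.74 ± 0.295 FPKM (limma adjusted p = 0.236). The calls of Bhlhe40, Nfil3, Csnk1e, Wee1 and Klf9 held under all 14 alternatives run for each. Those of Fbxw11, Hdac3, Nampt and Klf10 were each lost without MWA+PBS replicate 1 (limma adjusted p = 0.0922, 0.0691, 0.0576 and 0.118), without MWA+PBS replicate 3 (0.0914, 0.0585, 0.0686 and 0.0609) and without MWA+2DG replicate 4 (0.0728, 0.0593, 0.0655 and 0.0861). Without MWA+2DG replicate 5 Fbxw11 (0.0902) and Klf10 (0.0984) were lost, without replicate 6 Hdac3 (0.0653) and Nampt (0.1), and with no filter on low values Klf10 (0.0638). The count of called companions was 5 without MWA+PBS replicate 1, without MWA+PBS replicate 3 and without MWA+2DG replicate 4.

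Most genes listed for signals that are known to raise Per1 and Per2 from outside the loop were lower, 21 of 26. Beside them 1 was higher and 4 did not pass. Per2 itself did not pass (limma adjusted p = 0.741), and these lists were chosen with earlier results known. Of 12 immediate early genes 9 were lower and 0 higher, beside 17.1% and 22.3% of all tested genes, and their summed level was 443.2 to 474.7 FPKM in MWA+PBS and 140.4 to 148.2 FPKM in MWA+2DG. Junb, the most abundant, fell from 127.1 ± 3.94 FPKM to 52.3 ± 2.75 FPKM (SD, n = 3), and Fos from 103.0 ± 5.92 FPKM to 15.8 ± 0.662 FPKM. All 8 heat shock genes were lower, with sums of 1464 to 1533 FPKM and 485.5 to 512.5 FPKM. Of 6 genes for the glucocorticoid receptor and its targets, 4 were lower and 1, Sgk1, was higher by 0.24 on the log2 scale, which is less than the shift of 0.429 made by T lineage scaling. Without MWA+2DG replicate 4 and without replicate 6, 0 genes of these lists were called higher. Tsc22d3, a target, fell from 67.7 ± 2.54 FPKM to 39.0 ± 1.93 FPKM. The part of these signals in the levels of Per1 and Per2 was not tested.

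The genes whose pattern over the 6 samples was most like that of a member were named by Pearson's r of log2(FPKM + 1). For Per1 they were Phactr2 (r = 0.9991), Mir7048 (0.9991) and Bahd1 (0.9990), for Dbp Gabrr2 (0.9939), Elp2 (0.9922) and Alkbh3 (0.9907), and for Nr1d2 Tex10 (0.9936) and Gm3365 (0.9918). These are descriptions over 6 points in 2 groups, picked from 12444 tested genes.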

How the data were processed

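Poly(A) RNA of 6 samples was made into strand-marked libraries. The deposited FPKM values were made by the authors with HISAT2, StringTie and ballgown after read checks with fastp. The submitters' processing notes also name cutadapt 1.9, HISAT2 2.0.4, UMI-tools, StringTie 1.3.4d and the build mm9. Which annotation was used was not given in the sources used here, nor were sequencing dates or other batches, so a batch and the treatment cannot be told apart. The values carry at most 2 decimals. A scan of FPKM times transcript length for a common step, over 6165 genes with 1 transcript, gave a highest resonance of 0.178 to 0.19 and a median of 0.125 to 0.133 on a scale of 0 to 1, so no step stood out, whole reads were not recovered and depth is unknown. FPKM is scaled to the mapped fragments of a library, so a gene's value is relative to the rest of that library.

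Symbols were found for 28689 of 28773 IDs in GENCODE M21. The 12444 genes with a mean of at least 1 FPKM were fitted with limma 3.58.1 in R 4.3.3 (lmFit, eBayes with a trend, two-sided) on log2(FPKM + 1), MWA+2DG minus MWA+PBS, without covariates, and p-values were adjusted over all of them. This scale understates the change of low genes. The fitting step was tested on simulated data. Members and lists were chosen with earlier results of these data known. All members were named, then every called companion gene, at most 4 others per role, at most 3 genes per context or marker list by mean FPKM, and 3 like genes for each of the 3 members with the smallest p. Of these genes, 1 companion and 1 like gene are not reported here, and the companion was left out of the counts. Alternatives were a pseudocount of 0.1, no filter, a mean of at least 5 FPKM, quantile normalization, median ratio scaling, T lineage scaling, rescaling to a total that leaves out ribosomal protein, haemoglobin, immunoglobulin and mitochondrial genes, omission of each sample in turn, arrayWeights, eBayes with no trend, and the call rule of the study (P under 0.05, log2 fold change beyond 0.25).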

Additional observations from a re-analysis of the deposited data

How the results depend on the processing

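No paired analysis was possible because no number is shared, with 1 to 3 naming the MWA+PBS samples and 4 to 6 those of MWA+2DG. The number of clock members called, 2, became 1 with a mean FPKM of at least 5, where 3 were tested, and 8 with T lineage scaling, and stayed 2 under the other alternatives, including the call rule of the study. The number of companion genes called, 9, became 3 of 11 tested under the filter at 5 FPKM, and 20 with T lineage scaling. It was 5 to 10 when each sample was left out. The log2 ratio of Dbp to Arntl differed between groups by 0.47, and by 0.29 with a pseudocount of 1 in the ratio. T lineage scaling reversed Per2 (-0.39), Arntl (-0.27), Clock (-0.32), Nr1d2 (-0.31), Rora (-0.38), Tef (-0.42), Hdac3 (-0.17) and Noct (-0.31), as its uniform shift must for small values. Cry2 was 0.0186 with arrayWeights, and Tef was -0.0171 with quantile normalization and -0.0329 with median ratio scaling. Leaving out each sample gave -0.0212 to 0.0959 for Per2, -0.0559 to 0.0287 for Cry2 and -0.0289 to 0.0414 for Tef, none of them called. The cause of a change between settings was not tested. Over all genes, 4907 calls became 2951 of 7313 tested with the filter at 5 FPKM and 9060 with T lineage scaling. Depth is unknown, so how far it limits the low genes, Dbp among them, cannot be given.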
